A study of Mus musculus with 9 samples.

Results

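Neutrophil granule and surface genes were read in mouse pancreas as 30 genes, picked by symbol from a deposited table of 17132 genes. They comprised 4 genes of the primary granule, 5 of the secondary granule, 8 surface receptors, 3 surface adhesion genes, 4 genes of the NADPH oxidase and 6 genes of cytosolic or secreted neutrophil products. Of the 30, 26 were expressed well enough to be tested. The other 4 were the whole primary granule group.

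The study asked how a decoction affects acute pancreatitis, and sequenced messenger RNA of pancreas from C57BL/6 mice in 3 groups with 3 libraries each. QYD mice (libraries 65, 66 and 68) were injected intraperitoneally 7 times, once an hour, with caerulein, which drives acinar cells through their cholecystokinin receptors, and lipopolysaccharide (LPS, a bacterial endotoxin) joined the last dose; they were given Qingyi Decoction at 0 and 8 h. Model mice (libraries 56, 57 and 59) received the same caerulein and LPS, with saline in place of the decoction. Control mice (libraries 43, 44 and 45) received saline for the injections and saline in place of the decoction. Tissue of all groups was taken at 24 h. The treatment label of the QYD libraries spells the decoction QTD, while their titles spell it QYD. The labels give neither age nor sex and do not say whether a library is 1 animal, so p-values measure the spread between libraries.

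Neutrophils are short-lived white blood cells made in bone marrow and recruited from blood into inflamed tissue. They fill their granules in order while they mature: primary granule enzymes are transcribed at the promyelocyte stage, secondary granule proteins at the myelocyte stage, and surface receptors, adhesion molecules and S100 proteins are still transcribed in the mature cell. In acute pancreatitis neutrophils are among the first cells to enter the gland.

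Libraries held between 19112923 and 20212744 estimated counts. An acinar list of 9 genes took 3389171 to 3660527 estimated counts in QYD, 3722834 to 4199458 in Model and 4740810 to 5967865 in Control. The list holds genes of digestive enzymes and the transcription factor genes Ptf1a, Bhlha15 and Rbpjl. Levels are given as CPM (counts scaled to a common library size) on the scale of edgeR's TMM factors, which take the bulk of genes as the baseline. On this scale 1 count was worth 0.0292 to 0.0372 CPM in QYD, 0.0286 to 0.0345 CPM in Model and 0.127 to 0.140 CPM in Control libraries. On library totals alone the fold changes of all genes were higher by a median of 2.03 on the log2 scale for QYD against Control and 2.15 for Model against Control, and that median shift was -0.12 for QYD against Model.

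Promoters of 4 genes are shown because their transcripts stood at different levels in these libraries. S100a8 was high, Ngp was intermediate, Camp was low and Elane was near 0. Elane belongs to the primary granule group, Ngp and Camp to the secondary granule group and S100a8 to the cytosolic or secreted group. Each promoter is the RefSeq sequence (GRCm38.p6) from 250 bases before to 50 bases after the gene's start, on the gene's own strand. Capitals mark matches on either strand to TTGCNNAA, a core bound by C/EBP factors, or GAGGAA, a core bound by the ETS factor PU.1. S100a8 lies at chr3:90668821-90669120 (+ strand), Ngp at chr9:110419558-110419857 (+ strand), Camp at chr9:109849407-109849706 (- strand) and Elane at chr10:79886062-79886361 (+ strand).
S100a8: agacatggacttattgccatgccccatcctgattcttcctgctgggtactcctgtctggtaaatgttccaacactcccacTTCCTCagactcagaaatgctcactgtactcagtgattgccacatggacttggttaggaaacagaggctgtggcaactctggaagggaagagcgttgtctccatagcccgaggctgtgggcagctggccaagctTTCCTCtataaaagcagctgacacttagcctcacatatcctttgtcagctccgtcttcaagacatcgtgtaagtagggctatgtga
Ngp: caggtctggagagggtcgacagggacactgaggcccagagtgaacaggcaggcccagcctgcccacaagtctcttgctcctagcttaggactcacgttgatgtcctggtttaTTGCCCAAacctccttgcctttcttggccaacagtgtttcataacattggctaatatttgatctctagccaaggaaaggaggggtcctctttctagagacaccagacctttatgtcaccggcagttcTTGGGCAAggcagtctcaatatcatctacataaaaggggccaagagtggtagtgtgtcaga
Camp: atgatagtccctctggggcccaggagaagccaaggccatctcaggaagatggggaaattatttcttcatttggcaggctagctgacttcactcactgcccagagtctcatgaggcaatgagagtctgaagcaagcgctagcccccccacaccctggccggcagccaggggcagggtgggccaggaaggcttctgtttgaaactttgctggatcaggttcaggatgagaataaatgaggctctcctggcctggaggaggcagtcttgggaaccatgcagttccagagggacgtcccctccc
Elane: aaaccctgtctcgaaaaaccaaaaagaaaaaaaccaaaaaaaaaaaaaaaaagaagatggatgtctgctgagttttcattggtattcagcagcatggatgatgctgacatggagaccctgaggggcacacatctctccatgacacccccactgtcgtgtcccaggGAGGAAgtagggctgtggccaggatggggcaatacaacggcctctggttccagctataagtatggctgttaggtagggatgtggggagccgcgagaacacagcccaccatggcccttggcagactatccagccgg
GAGGAA was found in 16 of the 27 members with a promoter in the RefSeq table (59.3%), against 28.3% of all 27025 promoters of the same length, and TTGCNNAA in 5 of 27 (18.5%), against 10.8%. The motifs were searched separately and could overlap. All 4 primary granule promoters held GAGGAA, as did 6 of the 7 surface receptor promoters and the 2 adhesion promoters in the table. It was in 2 of 5 secondary granule and 1 of 6 cytosolic or secreted promoters. Of the oxidase promoters in the table, 1 held it and 2 did not. Ngp held TTGCNNAA at 138 and 11 bases before the start, S100a8 held GAGGAA at 170 and 36 bases before it, and Elane held GAGGAA at 85 bases before it. In Camp neither run of letters was found in this window. These matches describe the letters of the window only. The table has no promoter for Trem3, Itgb2 or Ncf4.

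Most surface and cytosolic neutrophil transcripts were several times higher in the injured pancreas than in Control pancreas, with and without the decoction. No primary granule gene gave more than 8 counts in any library. Summed over the 30 genes, members made up 677, 477 and 632 CPM of the unscaled library totals in QYD 65, 66 and 68, 611, 613 and 394 in Model 56, 57 and 59, and 23.2, 13.9 and 43.8 in Control 43, 44 and 45. On the TMM scale the same sums were 310.5 to 465 CPM in QYD, 260 to 350 CPM in Model and 35.7 to 110 CPM in Control libraries. On both scales the lowest injured library stood above the highest Control library. In bulk tissue, a change in the number of neutrophils and a change in RNA per neutrophil cannot be told apart.

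Model against Control, 23 of the 26 tested members were higher and none was lower at an adjusted p under 0.05 (edgeR quasi-likelihood test, Benjamini-Hochberg over 12828 genes). Of all genes tested, 21.3% were called higher and 21.3% lower in this comparison. QYD against Control, 22 of 26 were higher and none was lower, with 20.5% of all genes called higher and 20.3% lower. For 22 of 26 members all 3 QYD libraries lay above all 3 Control libraries, as did 27.8% of all genes, and for 22 of 26 all 3 Model libraries did, as did 27.4% of all genes. The median log2 fold change of the members was 2.90 for QYD and 2.69 for Model against Control, beside medians of 0.06 and 0.04 over all genes tested. Both comparisons use the same 3 Control libraries.

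**Figure D1:**
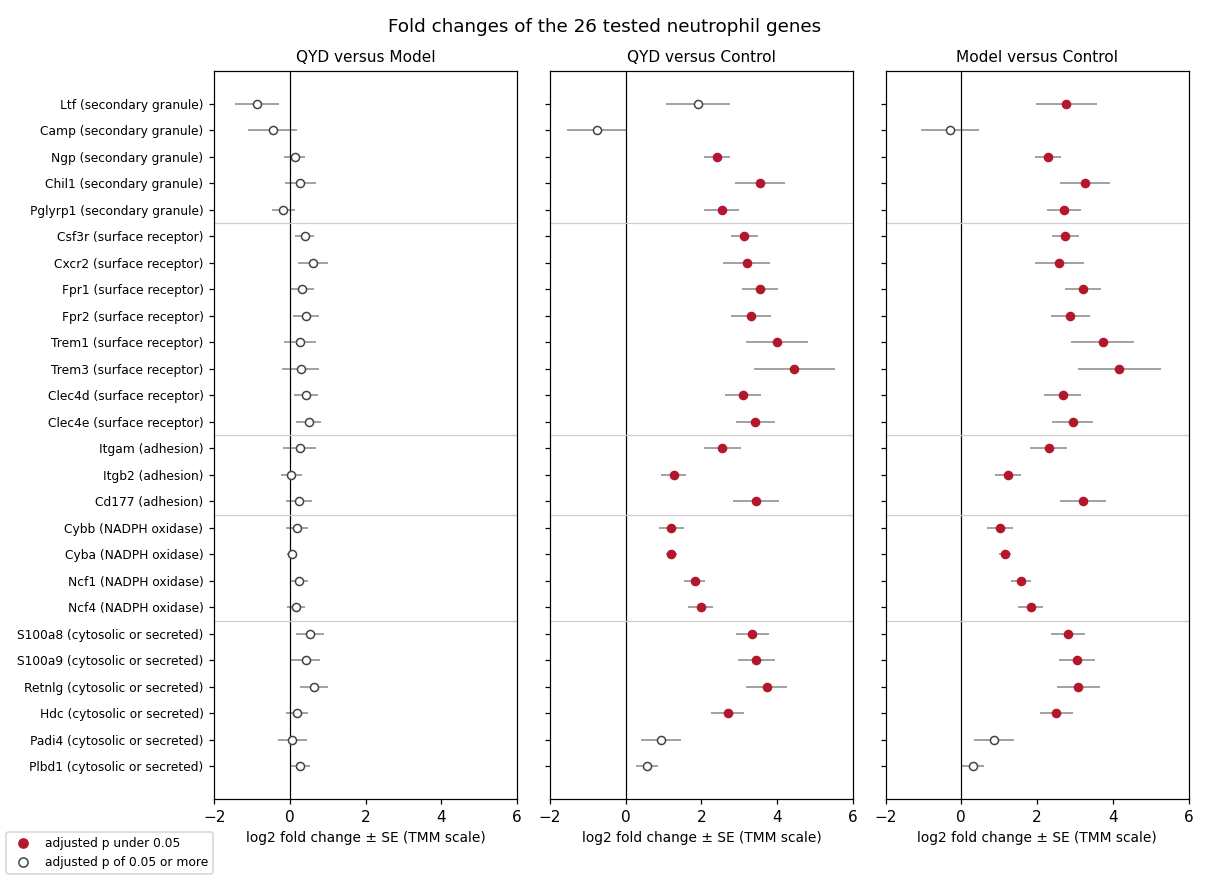
Log2 fold changes with standard errors for the 26 tested members, ordered by role, in QYD against Model (left), QYD against Control (middle) and Model against Control (right); filled points have an adjusted p under 0.05 (edgeR). All 8 surface receptors are filled in both comparisons with Control, Camp, Padi4 and Plbd1 are open in both, Ltf is filled for Model only, and no point is filled for QYD against Model.

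Among the 30 genes, the cytosolic and secreted products included the 2 with the highest FPKM in QYD and Model. S100a8 and S100a9 encode the subunits of calprotectin, a calcium-binding and metal-binding protein that fills the neutrophil cytosol. S100a9 had 59.3, 45.1 and 86.9 CPM in QYD libraries, 63.8, 42.7 and 37.4 CPM in Model libraries, and 3.08, 2.55 and 11.7 CPM in Control libraries. S100a8 had 47.2, 36.4 and 67.8 CPM in QYD, 42.6, 33.4 and 28.7 CPM in Model, and 3.08, 1.91 and 9.79 CPM in Control. Every injured library stood above every Control library for both genes, and Control 45 was the highest Control. The log2 fold change of S100a9 was 3.45 ± 0.48 (SE) for QYD and 3.04 ± 0.47 for Model against Control, and that of S100a8 was 3.34 ± 0.44 and 2.82 ± 0.44, with adjusted p of 0.000243 to 0.000541 (edgeR). The 2 transcripts kept similar levels per length: S100a8 over S100a9 in FPKM (fragments scaled to transcript length and library total) was 1.17 to 1.21 in QYD, 0.998 to 1.16 in Model and 1.12 to 1.49 in Control libraries.

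Retnlg, a resistin-like protein secreted by mouse neutrophils, had 13.5, 11.4 and 23.7 CPM in QYD, 13.1, 11.8 and 6.28 CPM in Model, and 0.42, 0.51 and 2.67 CPM in Control libraries. It rose by 3.72 ± 0.55 in QYD and 3.09 ± 0.56 in Model against Control on the log2 scale. Hdc, histidine decarboxylase, which makes histamine and is also expressed by mast cells and basophils, had 5.44, 4.09 and 5.89 CPM in QYD, 5.41, 4.73 and 3.38 CPM in Model, and 1.26, 0.13 and 1.02 CPM in Control. Hdc rose by 2.69 ± 0.43 in QYD and 2.51 ± 0.43 in Model, and for both genes the injured and Control libraries did not overlap. Beside this, the 8 mast cell and basophil genes in the table summed to 3.39 to 6.67 CPM in QYD, 4.87 to 6.31 CPM in Model and 10.04 to 17.7 CPM in Control libraries, and of the 2 that were tested the receptor gene Kit was lower in both comparisons, at -1.39 (QYD) and -1.15 (Model), and Cpa3 passed neither. On library totals alone the direction of Kit turned, to 0.65 in QYD, not called, and 0.99 in Model, called higher. In counts the 8 genes summed to 228, 131 and 91 in QYD, 170, 212 and 142 in Model and 79, 139 and 79 in Control. Kit held most of these, with 162, 102 and 86 in QYD, 151, 147 and 138 in Model and 44, 122 and 64 in Control. A change in mast cells was not tested.

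Padi4 and Plbd1 did not follow the other cytosolic and secreted genes. Padi4, the enzyme that citrullinates histones when neutrophil extracellular traps form, had 1.46, 0.90 and 1.15 CPM in QYD, 1.202, 1.43 and 0.72 CPM in Model, and 0.98, 0.13 and 0.76 CPM in Control libraries. Plbd1, a phospholipase B-like protein of granules, had 5.76, 4.46 and 5.18 CPM in QYD, 3.81, 5.92 and 3.04 CPM in Model, and 4.75, 2.67 and 3.05 CPM in Control. The groups overlapped for both genes. Padi4 had log2 fold changes of 0.93 ± 0.52 (QYD) and 0.86 ± 0.52 (Model) and Plbd1 of 0.56 ± 0.29 and 0.30 ± 0.30 against Control, with adjusted p of 0.147 to 0.446 (edgeR). On library totals alone both were called higher, Padi4 by 2.96 and 3.01 and Plbd1 by 2.61 and 2.46, where 93.8% and 94.0% of all genes were called higher in QYD and Model.

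All 8 surface receptors rose in both comparisons with Control, with a median log2 fold change of 3.37 in QYD and 2.91 in Model. Csf3r, the receptor of granulocyte colony-stimulating factor, had 13.6, 11.2 and 18.1 CPM in QYD, 14.4, 9.35 and 8.86 CPM in Model, and 1.26, 0.89 and 2.67 CPM in Control libraries. It rose by 3.14 ± 0.36 in QYD and 2.75 ± 0.36 in Model, with adjusted p of 0.000105 and 0.000212 (edgeR). Cxcr2, the receptor for the CXC chemokines that draw neutrophils out of blood, had 4.74, 3.92 and 9.54 CPM in QYD, 4.61, 3.75 and 3.52 CPM in Model, and 0.42, 0 and 1.53 CPM in Control. Its log2 fold change was 3.19 ± 0.62 in QYD and 2.59 ± 0.64 in Model. For both receptors every injured library was above every Control library.

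Fpr1 and Fpr2, receptors for formylated bacterial and mitochondrial peptides, were close to each other in level. Fpr1 had 11.5, 11.5 and 16.8 CPM in QYD, 12.1, 10.99 and 8.69 CPM in Model, and 0.42, 0.25 and 2.67 CPM in Control libraries. Fpr2 had 10.7, 10.8 and 16.3 CPM in QYD, 9.22, 10.2 and 8.59 CPM in Model, and 0.42, 0.13 and 3.18 CPM in Control. Fpr1 rose by 3.54 ± 0.47 and 3.22 ± 0.47 and Fpr2 by 3.31 ± 0.52 and 2.88 ± 0.53 in QYD and Model against Control. Control 45 was the highest Control for both. In FPKM, Fpr2 over Fpr1 was 0.948 to 0.994 in QYD and 0.781 to 1.01 in Model libraries.

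Trem1, which amplifies signals of pattern receptors in myeloid cells, gave 71, 53 and 128 counts in QYD and 104, 60 and 69 counts in Model, against 0, 0 and 4 counts in Control libraries. Trem3, a related mouse receptor, gave 26, 20 and 48 counts in QYD and 40, 35 and 12 counts in Model, against 0, 0 and 1 count in Control. With that single Control count, the ratio of Trem3 was 23.7 (exact 95% interval 4.14 to 944) in QYD and 20.4 (3.57 to 815) in Model, an interval that covers counting error only. Clec4d and Clec4e, C-type lectins that recognise fungal and mycobacterial ligands and, for Clec4e, products of dead cells, rose by 3.10 ± 0.48 and 3.43 ± 0.52 in QYD and by 2.67 ± 0.49 and 2.93 ± 0.54 in Model. Clec4e had 9.30, 7.97 and 9.61 CPM in QYD, 6.04, 7.92 and 5.10 CPM in Model, and 0.14, 0.13 and 2.16 CPM in Control, so that nearly all of its Control counts came from Control 45.

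The 3 adhesion genes rose in both comparisons. Itgam (CD11b) pairs with Itgb2 (CD18) as the integrin Mac-1, which macrophages also carry, and Cd177 is a surface protein largely confined to neutrophils. Itgam had 64.3, 52.8 and 61.6 CPM in QYD, 43.2, 69.1 and 37.7 CPM in Model, and 5.45, 3.57 and 21.2 CPM in Control libraries. Itgb2 had 19.7, 16.8 and 17.1 CPM in QYD, 15.1, 26.4 and 10.7 CPM in Model, and 8.81, 4.58 and 8.90 CPM in Control. Neither gene's injured and Control libraries overlapped. Itgam rose by 2.55 ± 0.49 in QYD and 2.30 ± 0.49 in Model, Itgb2 by 1.27 ± 0.33 and 1.23 ± 0.33, and Cd177 by 3.44 ± 0.60 and 3.21 ± 0.61. In FPKM, Itgb2 over Itgam was 0.463 to 0.534 in QYD and 0.473 to 0.635 in Model libraries, against 2.70, 2.17 and 0.697 in Control 43, 44 and 45. The call of Itgb2 was lost without Control 44, at 1.02 (edgeR adjusted p 0.0503) in QYD and 0.98 (0.0540) in Model, and without Model 57 its value in Model was 0.80.

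NADPH oxidase genes rose least among the tested roles, with a median log2 fold change of 1.52 in QYD and 1.36 in Model against Control, a difference in size between roles that was not tested. Cybb and Cyba encode the membrane subunits of the phagocyte oxidase, and Ncf1 and Ncf4 encode its cytosolic subunits; macrophages express all of them. Cyba had 25.5, 23.4 and 23.7 CPM in QYD, 22.6, 25.8 and 21.1 CPM in Model, and 11.2, 8.15 and 12.1 CPM in Control libraries. Cybb had 16.7, 15.9 and 11.99 CPM in QYD, 11.4, 19.1 and 8.80 CPM in Model, and 8.95, 3.69 and 6.87 CPM in Control. Cyba was tight within groups and rose by 1.21 ± 0.15 in QYD and 1.15 ± 0.15 in Model. Cybb rose by 1.204 ± 0.33 and 1.02 ± 0.34, although Model 59 lay below Control 43. Without Control 44 the call of Cybb was lost in both comparisons, at 0.92 (edgeR adjusted p 0.0630) in QYD and 0.74 (0.118) in Model, and in Model also without Control 45 at 1.07 (0.0643) and without Model 57 at 0.65 (0.103). Ncf1 rose by 1.82 ± 0.27 and 1.58 ± 0.27, and Ncf4 by 1.98 ± 0.33 and 1.83 ± 0.33.

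Secondary granule genes split. Ngp, a neutrophil granule protein of the cystatin family, had 18.8, 13.7 and 21.0 CPM in QYD, 21.1, 16.4 and 11.3 CPM in Model, and 5.03, 1.53 and 3.56 CPM in Control libraries. It rose by 2.41 ± 0.35 in QYD and 2.29 ± 0.35 in Model, with no overlap. Pglyrp1, a peptidoglycan-binding antibacterial protein, rose by 2.53 ± 0.45 and 2.71 ± 0.45. Chil1, a chitinase-like protein that macrophages and epithelia can also make, had 9.33, 7.61 and 13.7 CPM in QYD, 9.10, 7.62 and 8.62 CPM in Model, and 0, 0 and 2.54 CPM in Control, and rose by 3.54 ± 0.65 and 3.27 ± 0.66. All of its 20 Control counts came from Control 45.

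Ltf, lactoferrin, an iron-binding protein that exocrine glands also secrete, had 5.03, 2.41 and 7.41 CPM in QYD, 2.72, 6.82 and 17.6 CPM in Model, and 0.84, 0.64 and 2.42 CPM in Control libraries. QYD 66 lay within the Control range by a narrow margin, and Model 59 stood well above every other library. Ltf rose in Model by 2.78 ± 0.80 (edgeR adjusted p 0.0171) and had 1.91 ± 0.83 in QYD (adjusted p 0.0886). The call in Model was lost without Control 43, at 2.55 (0.0665), and without Control 44, at 2.44 (0.0760), and without Model 59 it stood at 1.86 (0.0432). QYD against Model its log2 fold change was -0.86, with a 95% interval of -2.13 to 0.40, and 0.05 without Model 59. Ltf over Ngp in FPKM was 0.105, 0.0693 and 0.139 in QYD and 0.0509, 0.165 and 0.613 in Model libraries, against 0.0686, 0.155 and 0.272 in Control libraries, so that the 2 secondary granule transcripts did not keep 1 ratio.

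Camp, the precursor of the antimicrobial peptide cathelicidin, gave 12, 3 and 13 counts in QYD, 15, 18 and 9 counts in Model, and 5, 7 and 0 counts in Control libraries. This was 0.35, 0.10 and 0.48 CPM in QYD, 0.43, 0.54 and 0.31 CPM in Model, and 0.70, 0.89 and 0 CPM in Control. The groups overlapped, and the log2 fold change was -0.75 ± 0.80 in QYD and -0.30 ± 0.77 in Model (edgeR adjusted p 0.475 and 0.783). Its direction flipped on library totals alone, to 1.24 in QYD, not called, and 1.84 in Model, called higher (edgeR adjusted p 0.0266). On that scale all 26 tested members and 94.0% of all genes were called higher in Model. Without Control 44 the direction of Camp in Model flipped too, to 0.34, not called. In FPKM, which is scaled to library totals, Camp over Ngp was 0.0161 to 0.0510 in QYD and 0.0447 to 0.0711 in Model libraries, against 0.303, 1.28 and 0 in Control libraries at 5, 7 and 0 Camp counts.

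Primary granule genes, which are transcribed in promyelocytes of the marrow, were barely detected. Mpo, myeloperoxidase, gave 4, 1 and 1 counts in QYD, 4, 0 and 1 counts in Model, and 0 counts in each Control library. Elane, neutrophil elastase, gave 1, 0 and 0 counts in QYD, 2, 2 and 0 in Model, and 1, 1 and 0 in Control. Ctsg, cathepsin G, gave at most 1 count in any library. Prtn3, proteinase 3, gave 8, 6 and 0 counts in QYD, 1, 6 and 1 in Model, and 2, 1 and 1 in Control. The 4 genes together held 14, 8 and 1 counts in QYD, 8, 8 and 3 in Model, and 4, 2 and 1 in Control, while S100a8 alone gave 1086 to 1819 counts in QYD, 832 to 1490 in Model and 15 to 77 in Control. With no single gene above 8 counts in a library, none of the 4 entered the test, and a difference between groups was not detectable at this depth. The limit that a count of 0 allows, 3 counts in a library, was 0.0877 to 0.112 CPM in QYD, 0.0859 to 0.103 CPM in Model and 0.381 to 0.419 CPM in Control libraries.

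**Figure D2:**
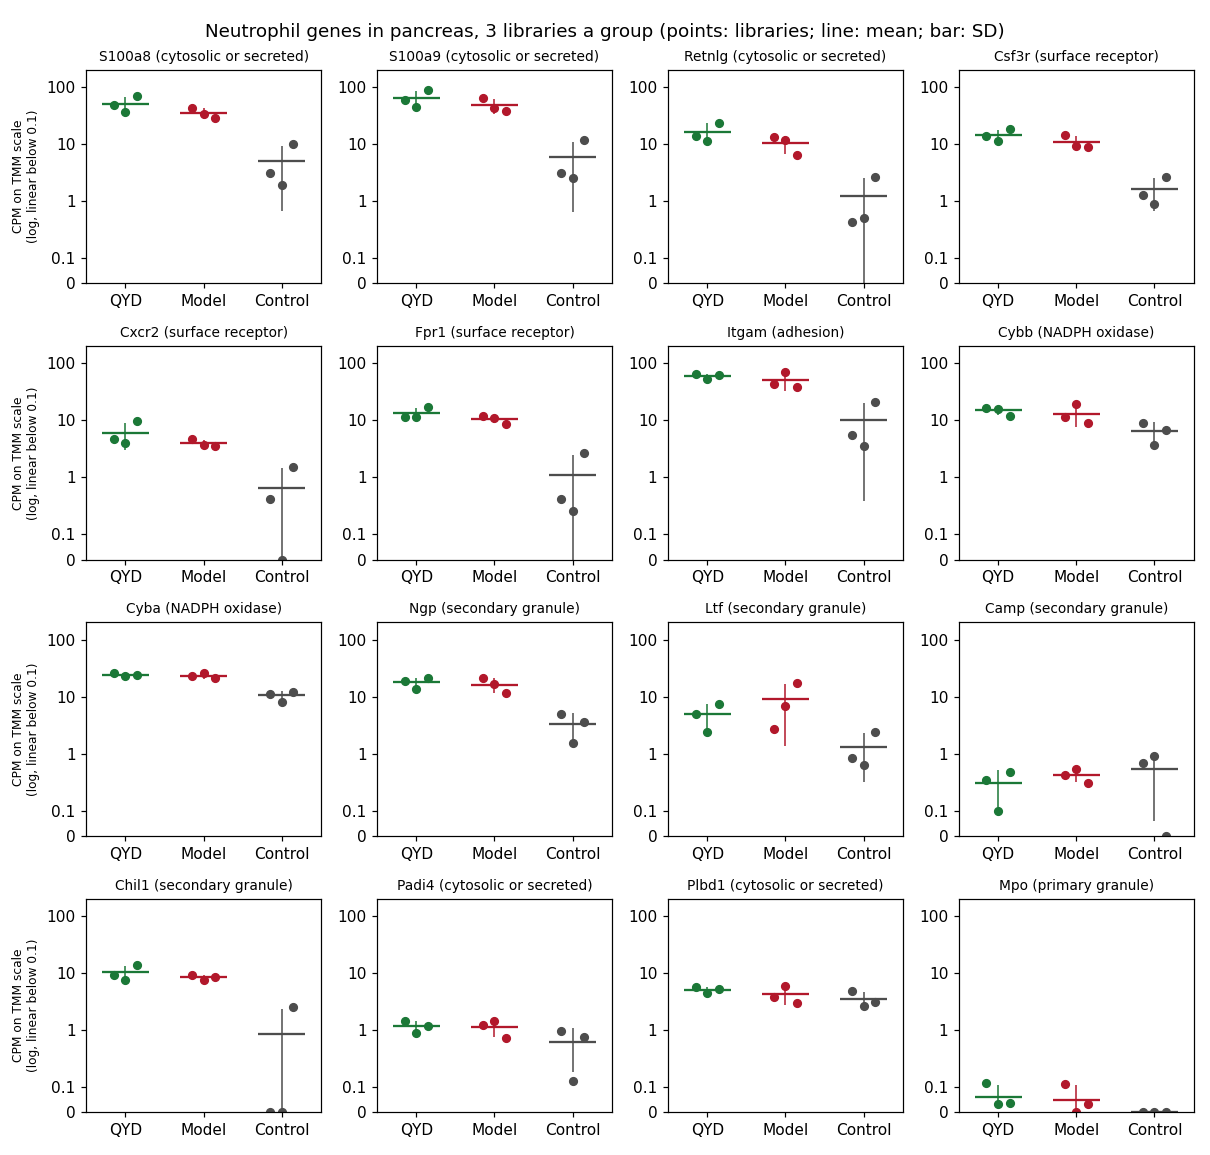
CPM on the TMM scale (log axis, linear below 0.1) of 16 members in the 3 libraries of QYD (left), Model (middle) and Control (right); points are libraries, lines are means and bars are SD, and bars that pass 0 end there. S100a8, S100a9, Retnlg, the receptors and Itgam are higher in every injured library than in every Control library, Ltf spreads widest in Model, Camp and Padi4 overlap between groups, and Mpo is near 0 throughout.

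Levels per transcript length ordered the genes across a wide range. In FPKM, S100a8 averaged 299.5 ± 75.1 (SD, n = 3) in QYD, 225 ± 65.8 in Model and 7.19 ± 6.43 in Control, and S100a9 averaged 252 ± 66.5, 209 ± 78.1 and 5.66 ± 5.19. Within libraries S100a8 stood above S100a9 in 8 of 9. In QYD and Model, Cyba came next, at 60.8 ± 10.9 in QYD, 62.6 ± 10.4 in Model and, above S100a9 there, 6.32 ± 1.28 in Control. It was the most abundant oxidase transcript in every group. Retnlg averaged 51.9 ± 15.7 in QYD, 37.4 ± 15.6 in Model and 0.973 ± 1.06 in Control, and its spread met that of Cyba in QYD. Ngp had the highest mean of the secondary granule genes, at 27.0 ± 6.15 in QYD, 27.2 ± 10.3 in Model and 1.23 ± 0.596 in Control FPKM, while Camp averaged 1.03 ± 0.608, 1.54 ± 0.495 and 0.423 ± 0.381. Pglyrp1 overlapped Ngp and exceeded it in Model 59 and Control 45. By their means, the genes below Ngp in Model were Pglyrp1 at 22.5, Itgam at 18.8, Fpr1 at 15.1, Fpr2 at 13.6 and Itgb2 at 10.95 FPKM, neighbours whose spreads overlapped. The 4 primary granule genes took the lowest ranks, from 0.163 FPKM for Prtn3 to 0.0367 FPKM for Mpo in Model.

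**Figure D3:**
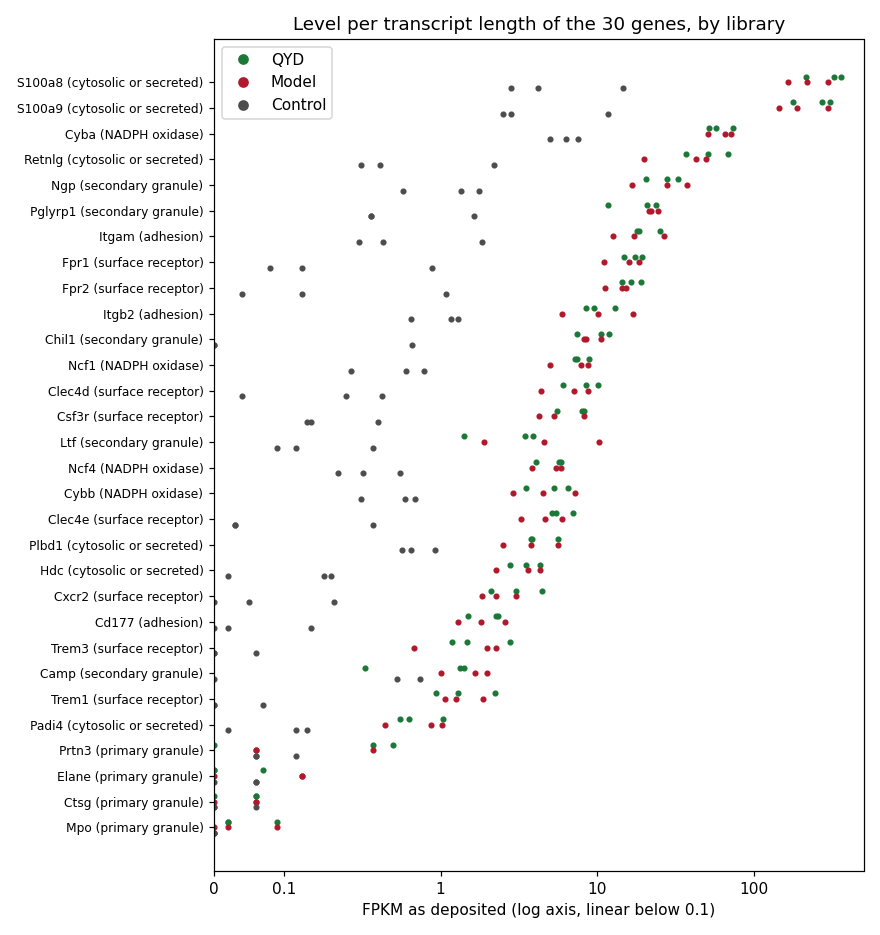
FPKM as deposited (log axis, linear below 0.1) of the 30 members in each library, ordered by the Model mean; QYD points are drawn above Model points and Control points lowest in each row. S100a8 and S100a9 lead with means of 299.5 and 252 FPKM in QYD, and the 4 primary granule genes lie at the bottom.

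The decoction comparison asked whether QYD pancreas differed from Model pancreas in these genes. No member was called: the smallest adjusted p among the 26 was 0.826 and none had an unadjusted p under 0.05 (edgeR), and 0% of the 12828 genes were called, with 750 (5.85%) at an unadjusted p under 0.05. DESeq2 called no gene either. limma-voom with sample weights and limma on log2 FPKM each called 1 gene, which was no member. The members' log2 fold changes ran from -0.86 (Ltf) to 0.63 (Retnlg), with a median of 0.26 beside 0.01 over all genes. Of the 26, 23 were positive on the TMM scale and 19 on library totals alone, beside 51.1% and 31.2% of all genes. Leaving out a single library turned the sign of several members. Without QYD 68, Ngp, Trem1, Trem3, Ncf4 and Chil1 turned negative, and without Model 59 Ngp, Itgb2, Trem3, Cybb, Cyba and Padi4 did. The other way, Ltf turned positive without Model 59 and Pglyrp1 without QYD 66. A shared direction of the members was not tested.

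The intervals of the difference show which sizes these libraries could not separate from 0. For S100a9 the log2 fold change of QYD against Model was 0.41 with a 95% interval of -0.45 to 1.27, and for S100a8 it was 0.53, with an interval of -0.26 to 1.32. Retnlg had 0.63 (-0.17 to 1.44) and Cxcr2 had 0.61 (-0.27 to 1.49). Cyba had the narrowest interval, 0.06 (-0.24 to 0.36), and Ngp had 0.13 (-0.48 to 0.73). For 2 of 26 members, Fpr2 and Clec4e, all QYD libraries lay above all Model libraries, beside 8.56% of all genes. No member lay wholly below, beside 8.18% of all genes.

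Within the injured groups the libraries did not share 1 level. In QYD, library 68 was the highest for 20 of 26 members, among them all 8 receptors and all 5 secondary granule genes, and library 66 was the lowest for 24. On library totals QYD 68 was highest for 14 and QYD 65 for 12. In Model, library 56 was the highest for 12 members, including S100a8, S100a9, Csf3r, Cxcr2 and Cd177. Library 57 was the highest for another 12, namely all 4 oxidase genes, Itgam, Itgb2, the receptors Fpr2, Clec4d and Clec4e, Camp, Padi4 and Plbd1. Model 59 was the lowest for 22 and the highest for Ltf and Pglyrp1 alone. S100a9 over Itgam in FPKM, a ratio free of the scaling between libraries, was 10.8, 9.98 and 16.6 in QYD 65, 66 and 68, 17.2, 7.04 and 11.5 in Model 56, 57 and 59, and 6.54, 8.40 and 6.30 in Control 43, 44 and 45. It was highest in Model 56 and QYD 68 and lowest among the injured libraries in Model 57.

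Genes of other blood cells also differed among these libraries. All 16 tested genes of the macrophage list were highest in Model 57 among Model libraries. Summed over the 18 macrophage genes in the table, levels were 206, 221 and 209 CPM in QYD 65, 66 and 68, 150, 254 and 122 CPM in Model 56, 57 and 59, and 161, 103 and 139 CPM in Control 43, 44 and 45. The 6 B cell genes summed to 13.9, 22.9 and 0.968 CPM in QYD, 0.687, 13.5 and 0.552 CPM in Model, and 14.4, 2.67 and 5.34 CPM in Control libraries. QYD 65, QYD 66 and Model 57 thus carried B cell transcripts at many times the level of the other injured libraries. The part of these cells in the values of the members, with Itgam, Itgb2, Clec4d, Clec4e and the oxidase genes among them, was not tested.

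**Figure D4:**
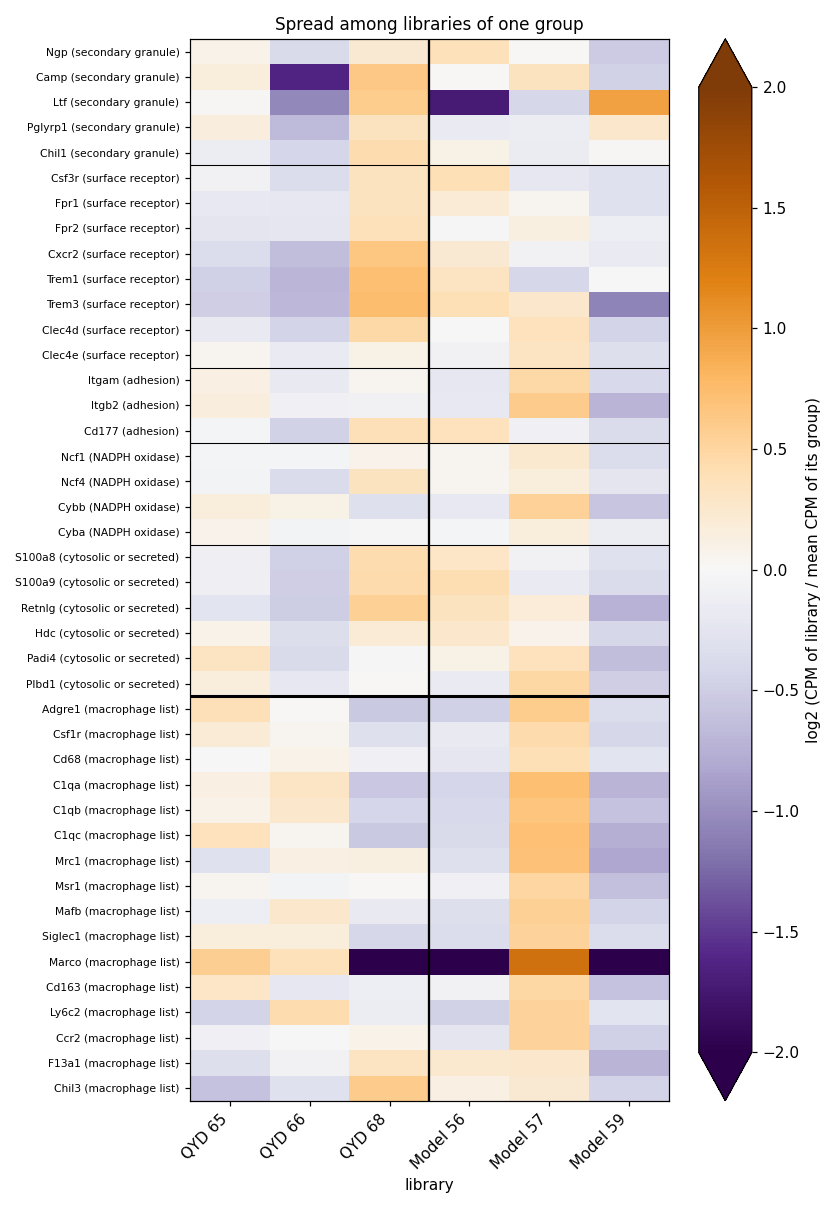
Log2 of each library's CPM over the mean of its own group for the 26 tested members by role and, below the thick line, the 16 tested macrophage genes; QYD libraries are left of Model libraries, and values past the colour scale take its end colour. QYD 68 and Model 56 are above their group means for most receptors and S100 genes. Model 57 is above its group mean for Itgam, Itgb2, the oxidase and macrophage genes and some receptors, Clec4d and Clec4e among them. Model 59 is below its group mean for most members but above it for Ltf, Pglyrp1 and, slightly, Chil1.

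Control 45 stood above the other 2 Control libraries for most neutrophil genes. It was the highest Control for 20 of 26 tested members, on the TMM scale and on library totals, with a median ratio of 2.63 to the mean of Control 43 and 44 over the 23 members with a nonzero mean there. The ratio was 16.2 for Clec4e, 11.6 for Fpr2, 10.9 for Cd177, 4.16 for S100a9 and 3.93 for S100a8. It was 1.09 for Cybb, 1.25 for Cyba and 1.09 for Ngp. Without Control 45, 22 of 26 members were called higher in each comparison, where 18.6% (QYD) and 19.4% (Model) of all genes were. The members' median log2 fold change was then 3.73 in QYD and 3.54 in Model, or 3.67 and 3.41 with the genes at 0 in both remaining Controls set at their bound.

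Without Control 45 the fold change of many members against Control moved by over 1.5 times, upward except for Camp. On the log2 scale S100a9 stood at 4.51 in QYD and 4.10 in Model, S100a8 at 4.35 and 3.82, and Retnlg at 5.10 and 4.47. Among the receptors, Fpr1 stood at 5.30 and 4.97, Fpr2 at 5.54 and 5.11, Cxcr2 at 4.88 and 4.27, Clec4e at 6.02 and 5.53, Clec4d at 3.77 and 3.34, and Csf3r at 3.73 and 3.35. Itgam stood at 3.73 in QYD and 3.48 in Model, Cd177 at 5.56 and 5.33, Pglyrp1 at 3.62 and 3.79, and Ltf at 2.74 and 3.61. Camp, which was not called, stood at -1.35 and -0.89. With both remaining Controls at 0 counts, Chil1 was at least 50.4-fold higher in QYD and 42.3-fold higher in Model, Trem1 at least 13.9-fold and 11.95-fold, and Trem3 at least 5.17-fold and 4.46-fold, against 3 counts over the 2 libraries. The calls of all called members named here held without Control 45. Without Control 44, Cxcr2 stood at 2.60 in QYD and 1.99 in Model, Cd177 at 2.85 and 2.62, and Chil1 at 2.95 and 2.68, all still called.

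Further genes that neutrophils express, from a list of 32 that did not include the members, were mostly higher too. This list, like the members and the other lists, was chosen with earlier results of these data known. Of 27 tested, 26 were higher and none lower in QYD, and 23 were higher and 1 lower in Model against Control. Beside this, 20.5% (QYD) and 21.3% (Model) of all genes were called higher. The list summed to 3624 to 3819 CPM in QYD, 2661 to 4166 CPM in Model and 177 to 986 CPM in Control libraries. The 30 members summed to 310.5 to 465, 260 to 350 and 35.7 to 110 CPM. Which cells made the transcripts of this list was not tested. Slfn1 rose by 3.01 and 2.92, Pilra by 3.05 and 2.85, and Il1rn, the interleukin-1 receptor antagonist, by 3.204 and 3.15, in QYD and Model. The 1 lower gene in Model was Lyz2, lysozyme, at -1.004, named after its value was seen. On library totals alone all 27 were called higher, as were 93.8% (QYD) and 94.0% (Model) of all genes. Cxcr1 was at most 2 counts in any library, and Stfa1, Stfa2, BC100530 and Ceacam10 gave 0 counts in all 3 Controls and 1 to 23 counts in injured libraries, too few to test.

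Genes on a list of 13 for neutrophil chemoattractants, other cytokines such as Lif, and the receptors C5ar1 and Ackr1 were mostly higher too. Of 10 tested, 10 rose in QYD and 9 in Model against Control, beside 20.5% and 21.3% of all genes. Cxcl2 and Cxcl5, ligands of Cxcr2, rose by 3.18 and 3.25 in QYD and by 3.38 and 3.55 in Model, and the cytokine gene Lif rose by 4.03 and 4.32. In the endothelial list, 4 of 8 genes rose and 1 fell in QYD and 5 rose and 1 fell in Model; Icam1, a ligand of Mac-1, rose by 2.11 and 2.27, and Selp, P-selectin, on which neutrophils roll, by 2.47 and 2.74, while the receptor gene Tek fell by 1.65 and 1.53, and on library totals alone stood at 0.39 and 0.60, not called.

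Of 6 tested genes from a list of transcription factors of granulocyte development, 4 rose and 1 fell in each comparison. Over all genes, 20.5% rose and 20.3% fell in QYD, and 21.3% rose and 21.3% fell in Model. The cells that carried these transcripts were not tested, and Cebpd already averaged 12.8 CPM in Control libraries. Spi1, which encodes PU.1, rose by 1.83 in QYD and 1.603 in Model, and Cebpd by 1.68 and 1.81. Gfi1 fell by 1.40 and 1.86, and on library totals alone it stood at 0.67 and 0.30. Cebpe, the factor that drives secondary granule genes in the marrow, gave 4, 4 and 6 counts in QYD, 3, 5 and 1 in Model, and 0, 0 and 1 in Control, and was not tested; it was named after its counts were seen, as were Cxcr1 and the 4 genes at 0 in all Controls.

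On the TMM scale, lists of other cells moved less or the other way. Of 16 tested macrophage genes, 6 rose and none fell in QYD, and 7 rose and 1 fell in Model. Over all genes, 20.5% rose and 20.3% fell in QYD, and 21.3% rose and 21.3% fell in Model. The list's median log2 fold change was 0.75 in QYD and 0.63 in Model, and 6 of the 16 were negative in each. The 3 with the smallest p in Model all rose, Msr1 by 2.55 and 2.15, Chil3, which neutrophils also express, by 3.51 and 2.73, and Siglec1 by 1.26 and 1.497. On library totals alone all 16 were called higher in each comparison, as were 93.8% (QYD) and 94.0% (Model) of all genes. No B cell, T cell or NK cell gene was called in either comparison on the TMM scale (6 and 4 tested). On library totals alone, 5 of 6 B cell genes were called higher in QYD and 0 in Model. For T and NK cell genes it was 2 of 4 in each. Of the dendritic cell list, Itgax was not called on the TMM scale and Zbtb46 fell by 1.29 and 1.39. On library totals alone both were called higher, Itgax at 2.25 and 2.34 and Zbtb46 at 0.75 and 0.77. All 3 tested erythroid genes were lower in both comparisons, with Hba-a1 at -2.06 and -1.73, but on library totals alone none was called, with Hba-a1 at 0.05 and 0.42. The 4 eosinophil genes in the table were too low to test, at sums of 18 to 27 counts in QYD, 11 to 38 in Model and 2 to 3 in Control libraries. Acinar genes were lower, 8 of 9 in QYD and 9 of 9 in Model, with Cela2a at -3.45 and -3.48; on library totals alone 5 (QYD) and 7 (Model) were lower and 2 higher. Of 6 duct genes 3 rose and 2 fell in QYD and 4 rose and 1 fell in Model, while on library totals alone 5 were higher and none lower in each. QYD against Model, no gene of any of these 13 lists was called.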

How the data were processed

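Polyadenylated RNA of mouse pancreas was sequenced, per the labels' protocols after Trizol extraction, oligo(dT) selection and circularisation of the libraries; whether strand was kept is not given. RSEM 1.2.12, HISAT2 2.0.4, Bowtie2 2.2.5 and build GRCm38.p6 are listed, with no roles, in the submitters' processing notes. Per the file headers, the authors deposited a read count per gene and library, taken here as RSEM's estimated count (93.5% of values were whole), with FPKM values and TPM values, each scaled by transcript length and library total by the authors. TPM values, the authors' group means and 9 further mean columns headed as Control, whose libraries the headers do not name, were not used.

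After rounding, edgeR 4.0.16 under R 4.3.3 (quasi-likelihood test, TMM, filterByExpr) was run on all 9 libraries in 1 fit with 6 residual degrees of freedom, with Benjamini-Hochberg adjustment over 12828 genes and a threshold of 0.05; 4304 genes were below the filter. The fit was tested on simulated data. Alternatives were RLE scaling, library totals alone, TMM without the 50 most abundant genes, no filter, at least 5 CPM in 3 libraries, DESeq2 1.42.0, limma 3.58.1 (sample-weighted voom, and log2 of FPKM plus 1 or plus 0.1 where FPKM reached 1 in 3 libraries), the compared groups only, a 2-fold threshold, and leaving out each library. Members and lists were chosen with earlier results of these data known. The genes given by library were S100a8, S100a9, Csf3r, Cxcr2, Fpr1, Ngp, Camp, Ltf, Mpo, Elane, Retnlg, Itgam, Cybb, Cyba, Padi4, Chil1 and Hdc, with members that failed or differed in a comparison with Control; values of other members by library were added after they were seen. Of each other list, the 3 tested genes with the smallest p in Model against Control were eligible to be named. Identifiers of all 30 members matched RefSeq. Intervals and limits for counts of 0 cover counting error only.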

Additional observations from a re-analysis of the deposited data

How the results depend on the processing

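Under every alternative run, no member was called for QYD against Model. The count of members called higher, 22 for QYD and 23 for Model against Control, kept within 1.5 times under every alternative, and leaving out 1 library gave 20 to 23 in each comparison. Counts over all genes did change. For QYD against Control 5222 genes were called, against 12155 on library totals alone, 10077 and 10071 with limma on log2 FPKM (plus 1 and plus 0.1) and 2463 at a 2-fold threshold, and 4237 to 5139 when 1 library was left out. For Model against Control 5464 were called, against 12185, 10083, 10086 and 2642 under the same settings, and 4583 to 5307 when 1 library was left out. On library totals alone 99.0% of calls were higher in both comparisons, against 50.2% (QYD) and 50.1% (Model) on the TMM scale. For QYD against Model 0 genes were called, against 1 with limma-voom and 1 with either FPKM scale. Camp reversed in Model against Control to 1.84 on library totals, where the median shift of all genes was 2.15. It stood at 0.86 and 2.08 on the FPKM scales, and the cause was not tested. Ltf in QYD against Control passed at 1.90 with the compared groups only, at 1.91 without Model 56 or Model 59, and at 3.91 on library totals. With limma-voom the calls of Ltf, Itgb2 and Cybb in Model were lost, at 2.31, 1.10 and 0.98; the cause was not tested. No paired analysis was possible because the groups share no replicate numbers. With 3 libraries a group the intervals are wide, and the primary granule genes, each with at most 8 counts in a library, carry no comparison.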
